A study of Homo sapiens with 4 samples.

Results

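FOS, FOSL1, JUN, JUNB, JUND, EGR1, KLF6, IER2, IER3 and DUSP1 are genes of the AP-1 and immediate early response, and they were taken by symbol from the deposited transcript tables of HT-29 cells, a human colon cancer cell line. They are 10 of the 27685 genes in those tables, and their 19 RefSeq transcript entries, of 63714 in all, were summed per gene. RNA of untreated cells was sequenced in 2 independent experiments, each with 1 library of cells carrying a control vector (Mock, given as WT in the labels) and 1 library of cells with stable overexpression of TRIM40 tagged with Myc at its N-terminus (Myc-TRIM40). TRIM40 is a member of the tripartite motif family of ubiquitin ligases. It was delivered in the retroviral vector pMSCV, and its RNA is taken to come from that vector, which reads per gene cannot show. The study's general methods select transduced cells with puromycin. Whether the cells were 1 clone or a pool, and the time from selection to RNA, is not given in the sources used here.

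Immediate early genes are transcribed within minutes of a stimulus to the cell, without need for new protein synthesis, and their RNAs are short-lived. Growth factors, cytokines and stress act through the MAP kinases ERK, JNK and p38 on factors already bound at these genes, such as serum response factor with its ternary complex partners, and CREB. Fos and Jun proteins then pair through leucine zippers to form AP-1, which binds target genes of proliferation, migration and matrix remodelling, while dual-specificity phosphatases such as DUSP1 switch the MAP kinases off again. In intestinal epithelium AP-1 is known from growth, wound repair and inflammation.

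All 10 genes were expressed in both conditions. TRIM40 had 0 reads in both Mock libraries, and in the Myc-TRIM40 libraries it had 272646 reads in experiment 1 and 110665 reads in experiment 2. Library totals were between 60954602 and 67424698 reads, and all 11 colon epithelium markers had reads in all 4 libraries, with a summed level between 15639 and 18454 TPM, a level corrected for transcript length and rescaled to 1 sum in each library, although CDX1 stayed under 1 TPM in each. The summed markers of other cell types were highest in the Myc-TRIM40 library of experiment 1, where the 6 fibroblast markers came to 3.11 TPM (at most 2.17 TPM in the other 3 libraries), the 5 leukocyte markers to 8.71 TPM (at most 5.65 TPM) and the 3 endothelial markers to 0.2995 TPM (at most 0.201 TPM). In that library the leukocyte sum was mostly CD14 (5.28 TPM) and ITGAM (2.93 TPM), and the fibroblast sum mostly COL1A1 (2.11 TPM) and LUM (0.924 TPM). The colon epithelium sum was also highest in Myc-TRIM40 of experiment 1. COL1A2, COL3A1, DCN, CD3E and CDH5 had 0 reads in all 4 libraries, and PTPRC had between 0 and 4 reads. The part of these differences in the results below was not tested. In RNA from a whole culture, a change in the share of cells that express a gene and a change in RNA per cell cannot be told apart.

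In the Mock libraries IER3 had the highest level of the 10 genes and DUSP1 the lowest. The mean TPM over the 2 Mock libraries was 92.8 ± 23.9 for IER3 (SD, n = 2, as for each mean here), 66.8 ± 1.44 for JUNB, 66.4 ± 16.8 for JUND, 56.7 ± 1.12 for IER2, 51.1 ± 9.30 for JUN, 36.1 ± 27.3 for FOSL1, 25.9 ± 6.38 for KLF6, 12.7 ± 1.80 for FOS, 12.2 ± 3.79 for EGR1 and 6.20 ± 0.388 for DUSP1. Of the neighbours in this order, IER3 and JUNB, KLF6 and FOS, and EGR1 and DUSP1 had Mock values that did not overlap, while the Mock values of the other neighbours overlapped. In the Myc-TRIM40 library of experiment 1, JUNB was the highest at 114.2 TPM, and EGR1 stood 7th of 10 at 69.0 TPM, compared with 8th or 9th in the other 3 libraries. The 10 genes together came to 423.1 TPM and 431.0 TPM in Mock of experiments 1 and 2, and to 689.4 TPM and 484.4 TPM in Myc-TRIM40. In TPM the median log2 ratio of Myc-TRIM40 to Mock over all genes tested was 0.07 in experiment 1 and 0.38 in experiment 2. As a part of all reads the 10 genes had 0.0429% and 0.0519% in Mock of experiments 1 and 2, and 0.0721% and 0.0516% in Myc-TRIM40.

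**Figure D1:**
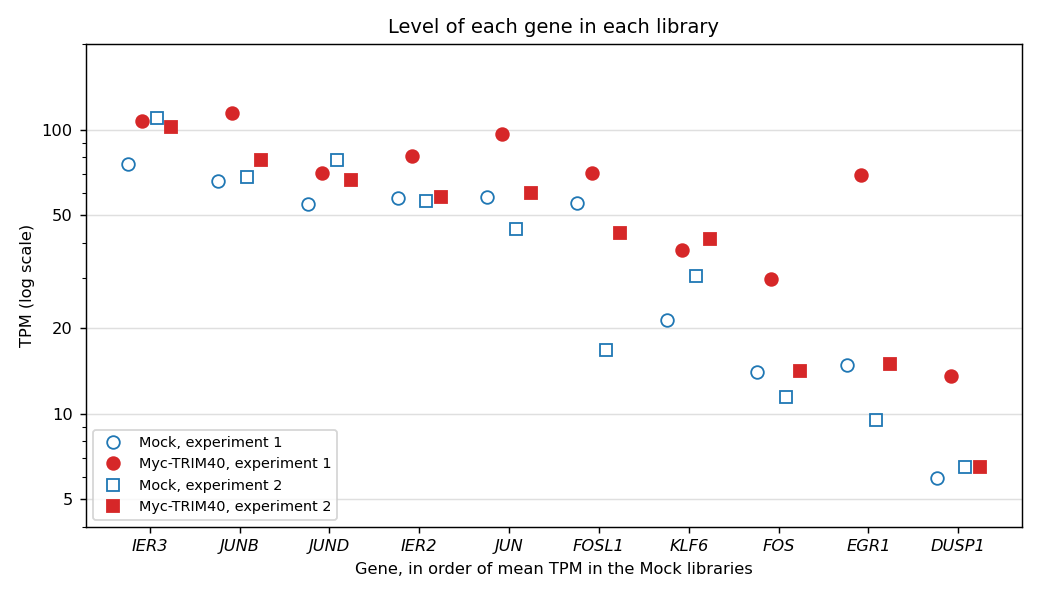
Level of each of the 10 genes in TPM on a log scale, in order of the mean over the Mock libraries, with 1 point for each library (circles, experiment 1; squares, experiment 2; open blue, Mock; filled red, Myc-TRIM40). The filled circle of EGR1 stands apart at 69.0 TPM, against 9.49 to 15.0 TPM in the other 3 libraries.

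To ask whether these RNAs differed between Myc-TRIM40 and Mock cells, reads were compared within each experiment after scaling by the trimmed mean of M values (TMM), and values per library are given below as TMM-scaled CPM, the reads of a gene as a part of the scaled library total. In experiment 1 the Myc-TRIM40 library was above Mock for 10 of 10 genes, against 50.2% of the 14868 genes tested, and this held under each of the 6 scalings tried, where the share of all genes was between 44.2% and 63.2%. The genes were chosen with earlier results of these data known, and all ratios of an experiment come from 1 pair of libraries. The count was therefore not tested. The log2 ratios of experiment 1 were between 0.28 (FOSL1) and 2.15 (EGR1). In experiment 2 the ratios were between −0.59 (JUND) and 1.00 (FOSL1), and 4 of 10 genes were above Mock, against 52.0% of all genes. Library totals gave 5 of 10 (61.9% of all genes), FPKM 5 of 10 (61.7%) and TPM 8 of 10 (78.0%). The median log2 ratio of the 10 genes was 0.70 in experiment 1, where that of all genes was 0.00, and −0.11 in experiment 2, where that of all genes was 0.03; the latter median of the 10 genes was 0.01 with library totals, 0.02 with FPKM and 0.25 with TPM. Over all genes tested, those scalings moved the median of experiment 2 to 0.15, 0.15 and 0.38, so the median of the 10 genes lay below that of all genes on each of these scales.

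EGR1, FOSL1, JUN and KLF6 were above Mock in both, under all 6 scalings, and these 4 of 10 compare with 28.6% of all genes. With library totals it was 5 of 10 (37.6% of all genes), with FPKM 5 of 10 (37.3%) and with TPM 8 of 10 (50.9%). A ratio of at least 1.5 in experiment 1 was seen for 6 of 10 genes (EGR1, DUSP1, FOS, KLF6, JUNB and JUN), against 10.1% of all genes. In experiment 2, only FOSL1 had such a ratio upwards, against 15.2% of all genes. Only JUND had it downwards, against 10.1%, at a CPM ratio of 0.662, from the sum of a pair of entries described below. With TPM EGR1 also had it upwards (35.3% of all genes did). With library totals, FPKM or TPM JUND did not have it downwards. The Myc-TRIM40 library of experiment 1 was the highest of the 4 libraries for 7 of 10 genes, against 28.0% of all genes, the others being JUND, IER3 and KLF6. Both Myc-TRIM40 libraries were above both Mock libraries for 2 of 10 genes, JUN and EGR1, against 11.0% of all genes. This count was 3 with library totals (15.2% of all genes), where FOS joined, 4 with FPKM (15.2%), where FOS and KLF6 did, and 7 with TPM (21.7%), where FOS, KLF6, JUNB, IER2 and DUSP1 did.

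**Figure D2:**
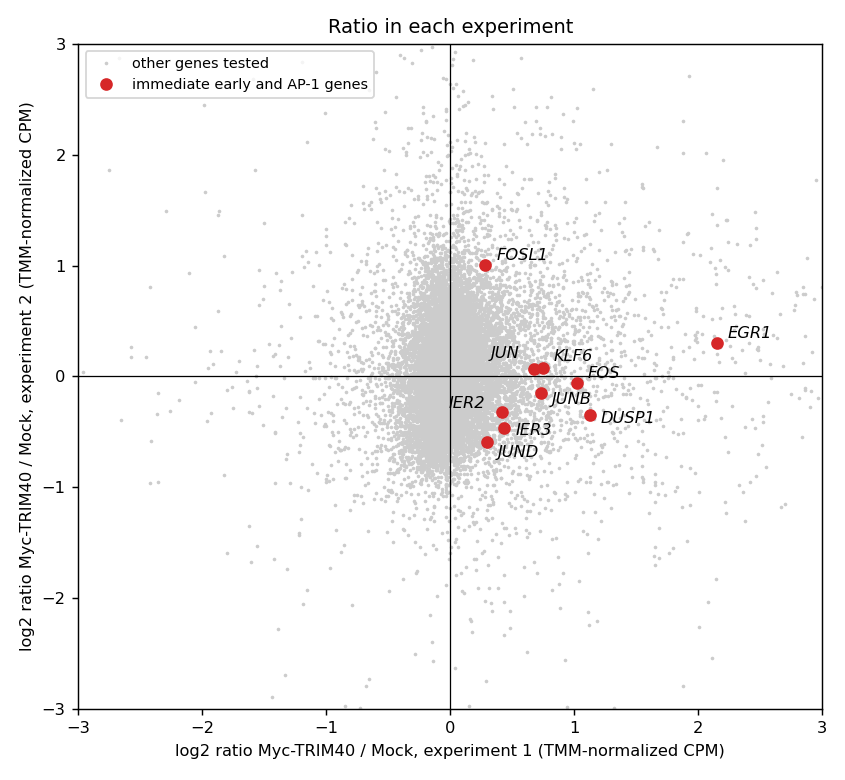
Log2 ratio of Myc-TRIM40 to Mock in experiment 1 (horizontal) and experiment 2 (vertical), on TMM-scaled CPM, for the 10 genes (red, named) and the other genes tested (grey; 295 genes lie beyond ±3). All 10 genes lie right of 0, while 4 lie above 0 on the vertical axis (5 with library totals or FPKM and 8 with TPM).

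No gene of the 10 passed the test across both experiments. edgeR's quasi-likelihood test with the experiment as a block and Benjamini-Hochberg adjustment called 0 of 10 at an adjusted p of 0.05, against 0.0605% of all genes (9 of 14868). At an unadjusted p of 0.05, 2 of 10 were higher, EGR1 and FOSL1, against 3.41% of all genes. DESeq2 also called 0 of 10, against 0.303% of all genes called higher, and had 2 of 10 higher at an unadjusted p of 0.05, against 2.37%. With limma on log2(FPKM + 1) 0 of 10 were called and 2 were higher at an unadjusted p of 0.05, against 3.65% of the genes it tested. Without the block edgeR had 0 of 10 at either threshold, against 0.861% of all genes higher at an unadjusted p of 0.05. With no filter on low counts it also had 0 of 10 at either, against 1.85% of the genes then tested. With upper-quartile normalization it called 0 of 10 and had 2 of 10 higher at an unadjusted p of 0.05, against 2.8%. On FPKM + 1, 0 of 10 genes reached a ratio of 1.5 upwards in both experiments, against 0.568% of the 11801 genes whose FPKM averaged 1 or more. Over both experiments the median fitted log2 fold change was 0.38 for the 10 genes and 0.04 for all genes, and it became −0.11 when experiment 1 was left out. Each experiment holds 1 library per condition, so the difference between the experiments' ratios was not tested; TRIM40 itself had 4660 TPM in Myc-TRIM40 of experiment 1 and 1763 TPM in that of experiment 2, and its part in this difference was not tested either. An exact permutation test of 2 against 2 libraries that ignored the pairing by experiment could not go below a two-sided p of 0.333. With the pairing kept, fewer arrangements are possible.

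**Figure D3:**
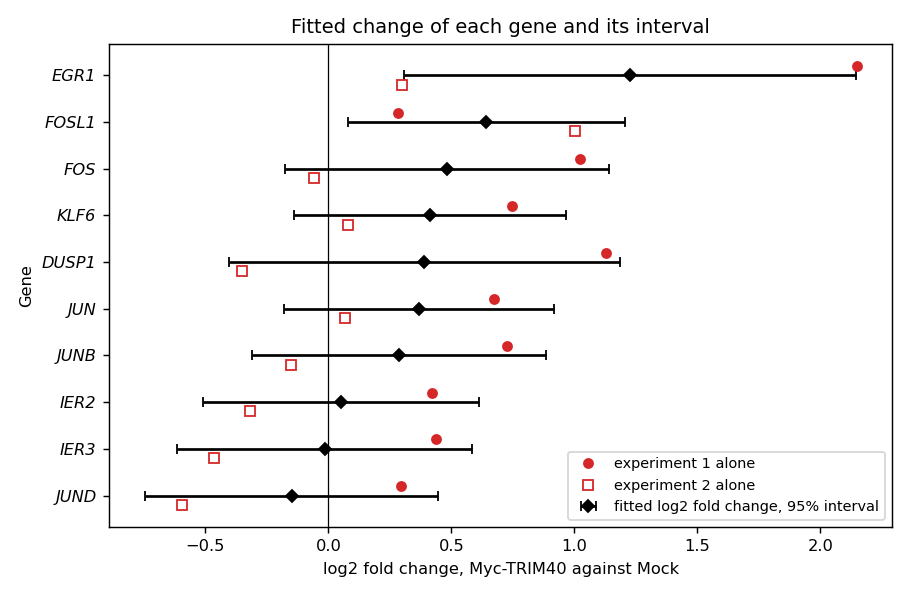
Log2 fold change of Myc-TRIM40 against Mock for each gene, with the fitted value and its 95% interval (diamonds and bars) and the ratio of each experiment alone (filled circles, experiment 1; open squares, experiment 2), on the TMM scale. Only the intervals of EGR1 (0.31 to 2.15) and FOSL1 (0.08 to 1.20) lie above 0, and neither gene passed the adjusted threshold.

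EGR1, a zinc-finger transcription factor induced by growth factors through ERK, had the largest ratio of the 10 genes in experiment 1 and lies at chr5:137801181-137805004 (hg19). Its level was 21.9 CPM in Mock and 96.9 CPM in Myc-TRIM40 of experiment 1, and 17.9 CPM in Mock and 22.0 CPM in Myc-TRIM40 of experiment 2. One library, Myc-TRIM40 of experiment 1, stood far above the other 3, and the groups did not overlap, although the lower Myc-TRIM40 value and the higher Mock value, from different experiments, were nearly equal. The ratio was 4.43 in experiment 1 (1334 reads against 6075 reads) and 1.23 in experiment 2 (1141 reads against 1415 reads), and it exceeded that of 98.5% of the genes tested in experiment 1 and 70.0% in experiment 2. The fitted log2 fold change was 1.23 (SE 0.40, 95% interval 0.31 to 2.15), with an unadjusted p of 0.0148 and an adjusted p of 0.888 by edgeR's quasi-likelihood test, and its adjusted p was between 0.189 and 1 under the alternatives tried.

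The promoters of EGR1, FOS and DUSP1 are shown, the genes with the highest log2 ratios of the 10 in experiment 1 (2.15, 1.02 and 1.13). Sites where serum response factor and CREB can bind may lie close to the start of transcription or further from it. Of the 10 genes, 8 had an entry in the RefSeq promoter table (GRCh38.p14), all but FOSL1 and IER3, and the 250 bases before the start were searched on both strands. Capitals mark CArG boxes (the serum response factor motif), the letters TGACGT on either strand (the core of the cyclic AMP response element, within the full TGACGTCA where that is present) and TATAAA. In these windows, read 5′ to 3′ on the strand of the gene, the first is EGR1 (chr5:138465229-138465478, plus strand), the second FOS (chr14:75278578-75278827, plus strand) and the last DUSP1 (chr5:172771196-172771445, minus strand).
EGR1: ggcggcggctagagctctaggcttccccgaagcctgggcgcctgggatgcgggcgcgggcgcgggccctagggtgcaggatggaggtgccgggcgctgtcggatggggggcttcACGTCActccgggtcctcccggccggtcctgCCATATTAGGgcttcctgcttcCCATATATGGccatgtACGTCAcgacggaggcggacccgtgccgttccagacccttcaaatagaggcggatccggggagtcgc
FOS: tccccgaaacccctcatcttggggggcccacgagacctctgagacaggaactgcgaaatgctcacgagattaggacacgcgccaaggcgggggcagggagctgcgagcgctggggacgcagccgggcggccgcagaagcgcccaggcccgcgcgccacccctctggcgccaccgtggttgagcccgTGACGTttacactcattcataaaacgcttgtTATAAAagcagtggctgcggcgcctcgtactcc
DUSP1: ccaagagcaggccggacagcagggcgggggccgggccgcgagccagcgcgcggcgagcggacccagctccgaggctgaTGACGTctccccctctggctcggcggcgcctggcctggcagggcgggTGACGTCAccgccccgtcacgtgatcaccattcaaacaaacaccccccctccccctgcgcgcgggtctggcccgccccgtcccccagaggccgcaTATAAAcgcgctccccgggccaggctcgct
EGR1 was the only one of the 8 with a CArG box in its window, and it had 2, at −105 to −96 and −83 to −74 from the start; 1.16% of all 35116 promoters had one. TGACGT was found in 4 of 8 (FOS, JUND, EGR1 and DUSP1), against 7.10% of all promoters, and TGACGTCA in JUND and DUSP1, against 1.65%. TATAAA was found in FOS, JUNB and DUSP1, against 10.7% of all promoters, and GGGCGG, a GC box, in 6 of 8, against 42.6%. The AP-1 heptamer TGANTCA was found in 0 of 8 windows, against 6.57% of all promoters. The windows were rich in G and C, at a median of 70.2% for the 8 genes and 58.0% for all promoters. A match describes the letters only, and sites further from the start were not searched.

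Of the Fos subunits, FOS had its higher level with Myc-TRIM40 in experiment 1, while FOSL1 showed its larger ratio in experiment 2. FOS, which carries a strong transactivation domain and is the classic immediate early gene, lies at chr14:75745481-75748937 (hg19). Its level was 14.2 CPM in Mock and 28.8 CPM in Myc-TRIM40 of experiment 1, and 14.9 CPM in Mock and 14.3 CPM in Myc-TRIM40 of experiment 2. Again 1 library stood above 3 that were nearly level, and the groups overlapped, though not with library totals, FPKM or TPM. The log2 ratio was 1.02 in experiment 1 and −0.06 in experiment 2 (0.06 with library totals, 0.07 with FPKM and 0.30 with TPM), and the fitted log2 fold change was 0.48 (SE 0.29, 95% interval −0.18 to 1.14; adjusted p = 0.888, edgeR).

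FOSL1 encodes FRA-1, a Fos protein that lacks that domain and is abundant in invasive carcinoma cells, and lies at chr11:65659607-65667997 (hg19). It had 44.7 CPM in Mock and 54.4 CPM in Myc-TRIM40 of experiment 1, and 17.4 CPM in Mock and 34.9 CPM in Myc-TRIM40 of experiment 2. Both libraries of experiment 1 were above both of experiment 2, and the groups overlapped. The ratio was 1.22 in experiment 1 and 2.00 in experiment 2, above that of 80.8% and 94.3% of the genes tested, and the fitted log2 fold change was 0.64 (SE 0.25, 95% interval 0.08 to 1.20; unadjusted p = 0.0298, adjusted p = 0.888, edgeR). Most FOSL1 reads were assigned to variant 1, with 2122 and 2673 reads in Mock and Myc-TRIM40 of experiment 1 and then 796 and 1693 in experiment 2, and its log2 ratios, 0.29 and 1.08, were close to those of the whole gene.

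The Jun subunits can pair with themselves as well as with Fos proteins, and none of the 3 genes has an intron. JUN, the main target of the kinase JNK, lies at chr1:59246463-59249785 (hg19). It had 89.9 CPM in Mock and 143.2 CPM in Myc-TRIM40 of experiment 1, and 89.1 CPM in Mock and 93.2 CPM in Myc-TRIM40 of experiment 2. The Myc-TRIM40 library of experiment 1 stood above 3 similar libraries, and the groups did not overlap. The log2 ratio was 0.67 in experiment 1 and 0.07 in experiment 2, and the fitted log2 fold change was 0.37 (SE 0.24, 95% interval −0.18 to 0.92).

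JUNB, a weaker transactivator that can hold JUN in check, lies at chr19:12902310-12904125 (hg19). Its level was 56.0 CPM in Mock and 92.8 CPM in Myc-TRIM40 of experiment 1, and 74.1 CPM in Mock and 66.6 CPM in Myc-TRIM40 of experiment 2. The highest value was that of Myc-TRIM40 in experiment 1, and the groups overlapped, though not in TPM, where Mock had 65.8 and 67.8 TPM and Myc-TRIM40 114.2 and 78.3 TPM. The log2 ratio was 0.73 in experiment 1 and −0.15 in experiment 2 (0.21 with TPM), and the fitted log2 fold change was 0.29 (SE 0.26, 95% interval −0.31 to 0.88).

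JUND, the Jun gene with the most constant expression in resting cells, lies at chr19:18390504-18392466 (hg19). It had 50.2 CPM in Mock and 61.6 CPM in Myc-TRIM40 of experiment 1, and 92.4 CPM in Mock and 61.2 CPM in Myc-TRIM40 of experiment 2. Here Mock of experiment 2 was the highest library, both Myc-TRIM40 libraries were alike, and the groups overlapped. The fitted log2 fold change was −0.15 (SE 0.26, 95% interval −0.75 to 0.45), from log2 ratios of 0.30 and −0.59. JUND is listed as a pair of RefSeq entries with the same position and the same length of 1963 bases, between which reads cannot be told apart by position. The first entry had 1622, 2013, 3107 and 3905 reads in Mock and Myc-TRIM40 of experiment 1 and Mock and Myc-TRIM40 of experiment 2, and the second had 1444, 1852, 2782 and 30 reads. Few reads went to the second entry only in Myc-TRIM40 of experiment 2. With the first entry alone, an alternative chosen after seeing the data, the log2 ratios were 0.27 and 0.32 and the fitted value was 0.30. In Myc-TRIM40 of experiment 2 the first entry held nearly all JUND reads, while in the other libraries the entries had similar counts. The first-entry ratio of experiment 2 therefore compares unlike parts of the gene's reads. The sum of both entries was 5889 reads in Mock and 3935 reads in Myc-TRIM40 of experiment 2. It does not depend on this split if each read was counted for 1 entry only, which is not given.

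**Figure D4:**
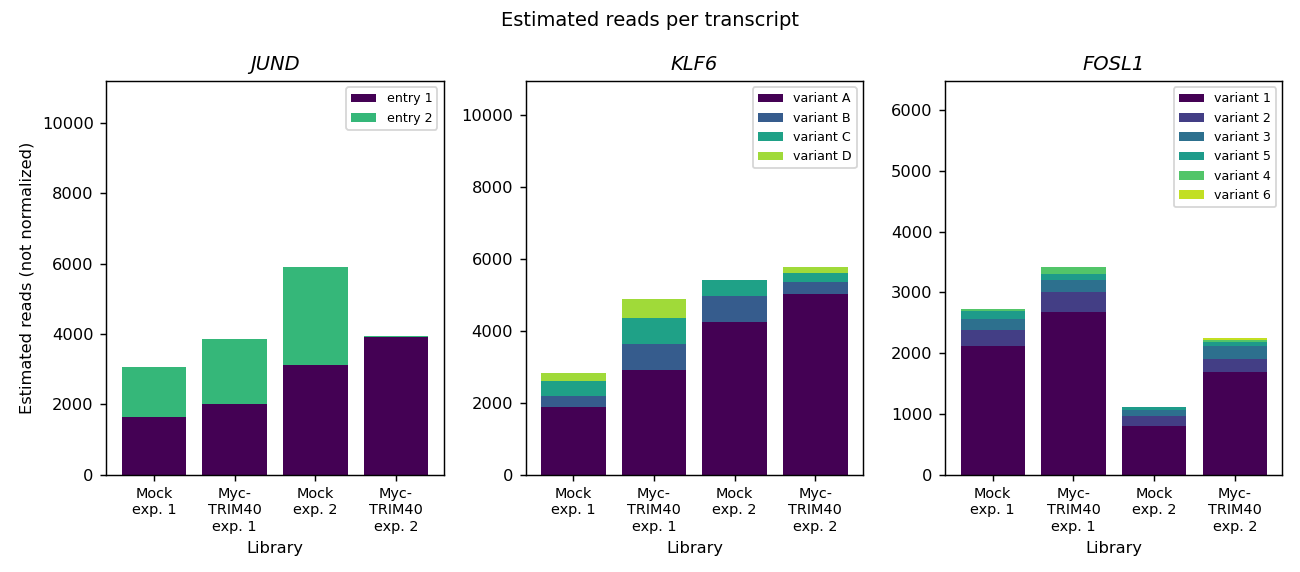
Estimated reads, not normalized, assigned to each transcript entry of JUND, KLF6 and FOSL1 in the 4 libraries (stacked bars, 1 colour per entry). The second JUND entry has 30 reads in Myc-TRIM40 of experiment 2 and between 1444 and 2782 reads in the other libraries, and KLF6 variant A has most KLF6 reads in each library.

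KLF6, a Krüppel-like zinc-finger factor that acts as a growth suppressor in many epithelia, lies at chr10:3818188-3827473 (hg19) and has the longest locus of the 10 genes, 9286 bases. It had 46.4 CPM in Mock and 78.0 CPM in Myc-TRIM40 of experiment 1, and 84.9 CPM in Mock and 89.6 CPM in Myc-TRIM40 of experiment 2. Mock of experiment 1 was the low library and the groups overlapped, though not in FPKM or TPM, where Mock had 21.4 and 30.5 TPM and Myc-TRIM40 37.8 and 41.2 TPM. The log2 ratio was 0.75 in experiment 1 and 0.08 in experiment 2, and the fitted log2 fold change was 0.41 (SE 0.24, 95% interval −0.14 to 0.96). Variant A, with 1874 and 2910 reads in Mock and Myc-TRIM40 of experiment 1 and then 4236 and 5030 in experiment 2, had log2 ratios of 0.60 and 0.23. Variants B and C were above Mock in experiment 1, at 1.21 and 0.73, and below it in experiment 2, at −1.15 and −0.79. The assignment of reads among these variants is an estimate, and its error is unknown here.

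IER2 and IER3 are immediate early genes named for that property. IER2 encodes a nuclear protein and lies at chr19:13261282-13265718 (hg19). It had 55.2 CPM in Mock and 73.8 CPM in Myc-TRIM40 of experiment 1, and 68.8 CPM in Mock and 55.3 CPM in Myc-TRIM40 of experiment 2. The 2 experiments went opposite ways on this scale and the groups overlapped (in TPM they did not, by a small margin), with log2 ratios of 0.42 and −0.32 (0.04 in experiment 2 with TPM) and a fitted value of 0.05 (SE 0.25, 95% interval −0.51 to 0.61).

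IER3, which modulates apoptosis and NF-κB and ERK signalling, lies at chr6:30710976-30712327 (hg19) and has the shortest locus, 1352 bases. Its level was 44.1 CPM in Mock and 59.7 CPM in Myc-TRIM40 of experiment 1, and 81.8 CPM in Mock and 59.3 CPM in Myc-TRIM40 of experiment 2. As for JUND, both Myc-TRIM40 values were alike and lay between the Mock values. The log2 ratios were 0.44 and −0.47, below 0 in experiment 2 under all 6 scalings as for JUND, and the fitted value was −0.02 (SE 0.26, 95% interval −0.62 to 0.59), or 0.063 by limma on log2(FPKM + 1).

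DUSP1, the phosphatase that inactivates JNK, p38 and ERK, lies at chr5:172195093-172198203 (hg19). With 344 to 773 reads it had the fewest reads of the 10 genes. It had 5.63 CPM in Mock and 12.3 CPM in Myc-TRIM40 of experiment 1, and 7.88 CPM in Mock and 6.17 CPM in Myc-TRIM40 of experiment 2. Myc-TRIM40 of experiment 1 was the highest library and the groups overlapped, though not in TPM, where Mock of experiment 2 and Myc-TRIM40 of experiment 2 were nearly equal. The log2 ratio, 1.13 in experiment 1 and −0.35 in experiment 2 (0.01 with TPM), was above that of 95.9% and 21.9% of the genes tested, and the fitted log2 fold change was 0.39 (SE 0.35, 95% interval −0.41 to 1.19).

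Immediate early RNAs can respond to handling of the cells, so the experiments were also compared with each other. Whether handling differed is not given in the labels, and its part in any difference was not tested. The same edgeR fit called 0 of 10 genes between experiment 2 and experiment 1, against 0.531% of all genes (79 of 14868), and at an unadjusted p of 0.05 it had 2 of 10, against 28.9%. These were FOSL1, at a log2 difference of −1.001 (SE 0.25; adjusted p = 0.0586), and EGR1, at −1.22 (SE 0.40; adjusted p = 0.0968). DESeq2 called both lower in experiment 2, with adjusted p of 0.00793 for FOSL1 and 0.0135 for EGR1, against 7.19% of all genes called lower. These fits take 1 difference between experiments for both conditions. For EGR1 it was −0.29 between the Mock libraries and −2.14 between the Myc-TRIM40 libraries, and for FOSL1 −1.36 and −0.64. The EGR1 term thus draws on the same high library, Myc-TRIM40 of experiment 1, as its fitted change with Myc-TRIM40.

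Mock cells alone also differed between the experiments for some of the 10 genes. Mock of experiment 2 had 1.85 times the IER3, 1.84 times the JUND and 1.83 times the KLF6 of Mock of experiment 1, and 0.389 times the FOSL1. For EGR1, FOS and JUN the Mock libraries were closer, with ratios of 0.819, 1.05 and 0.990. Between the Myc-TRIM40 libraries, EGR1 of experiment 2 was lower by 2.14 on the log2 scale than EGR1 of experiment 1, with −1.01 for FOS, −0.997 for DUSP1 and −0.62 for JUN. JUND and IER3 were alike in both Myc-TRIM40 libraries, at −0.01 each. These are values of single libraries, without a test.

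The other genes of the pathway were taken from 6 lists of 109 genes, of which 101 were tested. They were chosen by known role, with earlier results of these data known. edgeR called 0 of 101 at an adjusted p of 0.05, against 0.0605% of all genes. Unadjusted, at 0.05, it had 11 above Mock, against 3.41% of all genes, and 0 below. DESeq2 called 0 of 101 (12 higher unadjusted, against 2.37% of all genes). Limma called 0 of 92 (16 higher unadjusted, against 3.65% of the genes it tested). In experiment 1, 76 of 101 were above Mock, against 50.2% of all genes, and in experiment 2 61 were, against 52.0%. These 2 shares also stand beside the counts given without TPM for each list below. Counts given with TPM for these lists stand against 63.2% of all genes above Mock in experiment 1 and 78.0% in experiment 2 on that scale.

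Among the AP-1 partner subunits, 9 of 10 genes tested were above Mock in experiment 1 and 8 in experiment 2 (10 with TPM), with medians of 0.48 and 0.20. ATF3, a stress-induced factor that pairs with Jun proteins, had 286 reads in Mock and 1894 in Myc-TRIM40 of experiment 1, with 295 and 317 in experiment 2, or log2 ratios of 2.69 and 0.09. FOSB, the Fos gene most like FOS in its induction, had 225 and 851 reads in experiment 1, with 209 and 248 in experiment 2, or 1.88 and 0.23. FOSL2, which encodes FRA-2, had 3163 and 4101 reads in experiment 1, with 1089 and 2476 in experiment 2, or 0.34 and 1.17. ATF3 and FOSB thus had the larger ratio in experiment 1, and FOSL2 had it in experiment 2. Both kinds were also found among the partners outside the Fos family that are not named here. BATF2 (0.63 and −0.19) and MAFK (0.19 and −0.13) went opposite ways, although not with TPM (0.13 and 0.23 in experiment 2).

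Of the other immediate early transcription factors, 10 of 14 were above Mock in experiment 1 and 8 in experiment 2 (11 and 12 with TPM). CSRNP1 had log2 ratios of 1.298 and 0.45, KLF4, a factor of epithelial differentiation, 1.19 and 0.37, and the nuclear receptor NR4A2 0.92 and 0.33. KLF2 (2.22 and −1.13), with 8 to 44 reads, and SRF (−0.18 and 0.45), the serum response factor itself, went opposite ways, and ETS2 was below Mock in experiment 1 at −0.24 and level at −0.00 in experiment 2 (0.36 with TPM).

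All 25 of the other immediate early genes, which do not bind DNA, were above Mock in experiment 1, and 9 of 25 were in experiment 2 (15 with TPM), with medians of 0.44 and −0.16 (0.19 with TPM). ZFP36L1, which promotes decay of AU-rich RNAs, had 3182 and 8797 reads in experiment 1, with 4330 and 6513 in experiment 2, or log2 ratios of 1.43 and 0.58 (fitted 1.00, SE 0.26; adjusted p = 0.671, edgeR). PPP1R15A, a stress-induced phosphatase subunit, had 1.31 and 0.07, and HBEGF, a ligand of the EGF receptor, 1.38 and 0.22. GADD45B (1.31 and −0.51) and CCN2 (0.78 and −0.50) went opposite ways.

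Of the MAPK phosphatases and ERK feedback genes, 13 of 16 were above Mock in experiment 1 and 10 in experiment 2 (14 and 16 with TPM). DUSP16, a JNK and p38 phosphatase, had a ratio of 1.42 in each experiment, DUSP10 had log2 ratios of 0.84 and 0.10, and EPHA2 0.32 and 0.63. DUSP6, the phosphatase of ERK (0.37 and −0.17), and DUSP8 (0.61 and −0.18) went opposite ways (0.19 and 0.18 in experiment 2 with TPM), and ETV4 was slightly below Mock in both, at −0.12 and −0.12 (0.08 in experiment 2 with TPM).

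The upstream kinases and ternary complex factors differed in pattern, with 7 of 20 above Mock in experiment 1 and 15 in experiment 2 (13 and 18 with TPM). MAP2K7, a kinase upstream of JNK, had 2663 and 2845 reads in experiment 1, with 1272 and 3429 in experiment 2, or log2 ratios of 0.06 and 1.42. BRAF had 0.15 and 0.82, ELK4, a partner of serum response factor, 0.06 and 0.44, and MAP2K2 −0.14 and −0.42. RPS6KA5, a nuclear kinase downstream of ERK and p38, went opposite ways (−0.20 and 0.65).

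Of the known AP-1 target genes of epithelia, 12 of 16 were above Mock in experiment 1 and 11 in experiment 2 (14 and 14 with TPM). MMP13, a collagenase, had 12 and 132 reads in experiment 1, with 2 and 20 in experiment 2, with a fitted log2 fold change of 3.35 (SE 0.59; adjusted p = 0.176, edgeR). MMP1, another collagenase, with 8 to 35 reads, had log2 ratios of 2.03 and 0.38. CXCL8, which encodes the chemokine IL-8, had 115 and 680 reads in experiment 1, with 374 and 295 in experiment 2, or 2.52 and −0.35 (0.00 with TPM), and PLAUR, the urokinase receptor, 0.69 and −0.39.

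**Figure D5:**
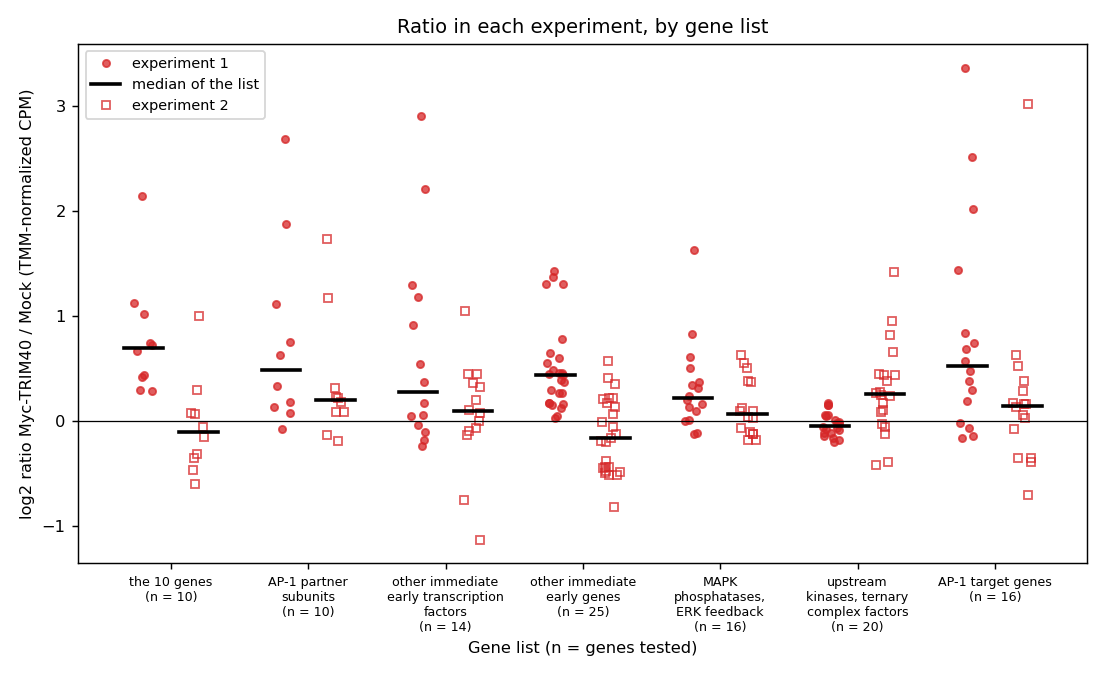
Log2 ratio of Myc-TRIM40 to Mock on TMM-scaled CPM for the 10 genes and the tested genes of the 6 lists, in experiment 1 (filled circles) and experiment 2 (open squares), with the median of each list as a bar. The median of the other immediate early genes was 0.44 in experiment 1 and −0.16 in experiment 2 (0.19 with TPM), and that of the upstream kinases −0.04 (0.05 with TPM) and 0.26.

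The 10 genes also shared a compact structure, which was not used to choose them. Their loci spanned a median of 3390 bases, against 25257 bases for the 11801 genes whose FPKM averaged 1 or more, and 3 of 10 (30.0%) had no intron, against 5.39% of those genes. No locus of the 10 overlapped another gene of the tables.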

How the data were processed

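RNA-seq of HT-29 cells was available as 4 libraries, Mock and Myc-TRIM40 in each of 2 experiments, grouped by the labels. Libraries were made with a TruSeq Stranded mRNA kit. The submitters' processing notes name HISAT2 2.1.0, StringTie 1.3.4d and the genome build hg19. For each RefSeq transcript, the deposited tables give the estimated count of reads as a whole number, without normalization. FPKM, also deposited, divides it by length and depth, and TPM was deposited for experiment 2. Other deposited values used were transcript lengths in bases. TPM of experiment 1 was computed from the deposited FPKM. How the estimated counts were split among transcripts, and whether strand was used, is not given in the sources used here.

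Transcripts were summed per gene ID. The test was edgeR 4.0.16 in R 4.3.3 (quasi-likelihood, TMM) on the 14868 genes that passed filterByExpr, with the experiment as a block and Benjamini-Hochberg adjustment over all genes, two-sided, at 0.05. Dispersion was 0.0484 in common, and a gene had 8.44 degrees of freedom at the median, 1 of them residual. CPM ratios used a prior count of 0.5. The pairing comes from the replicate numbers of the labels and from the tables, each of which holds a Mock and a Myc-TRIM40 library, and deviations of same-numbered libraries correlated at 0.40. The 2 experiments limit the precision of every value. On simulated counts of 14713 genes, the test found 22 of 104 genes changed 2-fold and 90 of 96 changed 4-fold, and called 6 unchanged genes.

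The 10 genes and the gene lists were chosen with earlier results of these data known. Named besides the 10 genes and TRIM40 were, from each list, up to 3 genes with the highest and up to 3 with the lowest fitted change among those with 1 sign in both experiments, up to 2 that went opposite ways, and any called; some results that this rule covers are not reported here. The alternatives were no replicate block, DESeq2 1.42.0, upper-quartile normalization, no filter, limma 3.58.1 on log2(FPKM + 1), each experiment left out, no condition term for the difference between experiments, and for the 1.5-fold count a pseudocount of 0.1, a 2-fold threshold, TPM and centred ratios. Summing no transcripts, but taking the one with the most reads, was chosen after seeing the data. The reference given was of another build than hg19, so promoter sequences carry their own build.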

Additional observations from a re-analysis of the deposited data

How the results depend on the processing

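No gene of the 10 was called under any alternative for Myc-TRIM40 against Mock, and their median log2 fold change of 0.38 was 0.38 with no replicate block, and between 0.35 (DESeq2) and 0.41 (limma) under the other alternatives that kept all libraries. With 1 experiment left out it ranged from −0.11 to 0.70. JUND turned to 0.30 with the transcript of most reads, and IER3 to 0.063 with limma. That JUND transcript held unlike parts of the gene's reads between libraries. The count with a 1.5-fold ratio upwards in both experiments was 0, and 1 with TPM. In TPM without a pseudocount, 11.7% of all genes reached that ratio in experiment 1 and 35.3% in experiment 2. With 1 experiment left out the count was 1 to 6, which is a count within a single experiment. On TMM-scaled CPM it was 6 in experiment 1, against 10.1% of all genes, and 1 in experiment 2, against 15.2%. The count downwards in both experiments was 0, also with TPM. Genes called higher and lower over all genes were 6 and 3; they were 0 and 0 with no replicate block or no filter and 45 and 9 with DESeq2, and limma had 1 lower. Genes called higher and lower in experiment 2 were 20 and 59; they were 0 and 0 with no condition term or no filter, 885 and 1069 with DESeq2, and 8 and 7 with the upper quartile. DESeq2 called 2 of the 10 genes lower in experiment 2. The replicate block changed no call of the 10 genes; the call of TRIM40 was lost without it (adjusted p = 0.0608, edgeR) and with no filter (0.126). The causes were not tested. Adding overlapping genes gave no value, since none overlapped. With 2 libraries per condition the test found 22 of 104 simulated 2-fold changes, so changes of that size among the 10 genes could have gone uncalled.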
